A study of Mus musculus with 8 samples.

Results

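The genes described here are 8 that set the activity of the sterol regulatory element-binding proteins (SREBPs) or move sterol inside the cell: Srebf1, Srebf2, Scap, Insig1, Insig2, Mbtps1, Mbtps2 and Stard4. They were taken by gene symbol from the deposited expression table, and are 8 of the 57010 genes in the count files. All 8 stood in the deposited table of 13751 genes and all 8 passed the filter on low counts, as did 13378 genes in all. None of the 8 encodes a lipoprotein receptor, so uptake of lipoprotein is not covered by them.

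RNA was sequenced from wild-type C57BL/6 CD4 T cells, sorted as naive cells from peripheral lymph nodes and grown in RPMI with serum. In both groups the cells were activated for 20 h on coated anti-CD3 and anti-CD28 antibodies (4 µg/mL each). The 4 control cultures (Ctrl.) had no added iron and the 4 FAC cultures had iron supplementation, and the labels number 4 mice, each with 1 culture of either kind. The labels used here give no iron dose, no age of the mice and no vehicle for the controls, and the serum in both groups is itself a source of lipoprotein and iron.

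SREBPs are transcription factors made as membrane proteins of the endoplasmic reticulum. When sterol is scarce, the escort protein SCAP carries them to the Golgi, where site-1 and site-2 proteases release the active factor, which then turns on genes of sterol and fatty acid synthesis. When sterol is ample, INSIG proteins hold SCAP and its cargo in the endoplasmic reticulum, and INSIG1 is itself a well-known SREBP target, so its transcript is often read as a measure of the pathway. Activated T cells are known to need this pathway to build membrane as they grow.

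Library totals ran from 25410267 to 37350609 counts, and the members' counts from 189 (Insig2) to 16924 (Srebf2). The summed level of 9 CD4 T cell markers was 3018 to 3135 CPM (counts scaled to a common library total) in controls and 3151 to 3261 CPM with FAC. The marker lists of other cell types were far lower: B cell markers summed to at most 0.379 CPM, myeloid to 3.82, dendritic cell to 3.59, NK cell to 1.96, CD8 T cell to 10.9 and stromal or endothelial to 10.6 CPM in any library. Markers with 0 counts in all 8 libraries included Lyz2, S100a8 and S100a9 (myeloid), Clec9a and Siglech (dendritic cell), Ncr1 (NK cell) and Pdgfra and Cdh5 (stromal or endothelial). Each of these lists, and that of CD8 T cells, had 1 gene that passed the filter on low counts. Mean levels in controls and with FAC were 9.51 and 7.74 CPM for Cd8b1 (CD8 T cell) and 8.22 and 9.31 for Pecam1 (stromal or endothelial). They were 2.41 and 3.01 CPM for Zbtb46 (dendritic cell), 1.92 and 2.65 for Cd68 (myeloid) and 1.19 and 1.16 for Eomes (NK cell). The summed levels of the groups overlapped for each marker list except that of CD4 T cells. Of the 9 CD4 T cell markers 1, Cd5, was called as higher (log2 change 0.14, edgeR adjusted p = 0.0304, and 0.127 without FAC 3). It was called in 2 of 8 fits with 1 library fewer. With the replicate block Cd28 was called as well (0.12, edgeR adjusted p = 0.316, and 0.0410 with the block). Among all 13378 tested genes 2.18% were called as higher, and 544 genes with the block. Mean levels in controls and with FAC were 848 and 936 CPM for Cd5 and 254 and 277 CPM for Cd28. They were 623 and 606 CPM for Cd4 (higher in 0 of 4 mice), 121 and 118 for Cd3d and 180 and 180 for Cd3e. The remaining markers were at 478 and 484 CPM (Trac), 401 and 404 (Lck), 97.7 and 103 (Cd3g) and 80.6 and 82.8 (Cd2). The part of the higher summed CD4 T cell marker level in the results below was not tested.

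SREBPs act through short elements just before a gene's start, so the 250 bases before the annotated start are shown for Srebf2 and Insig1, the members higher with FAC for which the RefSeq table (build GRCm38.p6, an earlier build than that of the count files) holds an entry. Capitals mark 3 motifs searched on both strands: TCACNCCA, a short form of the sterol regulatory element; CCAAT, the box bound by NF-Y, a known SREBP partner; and GGGCGG, the box bound by Sp1.
Srebf2, chr15:82147019-82147268, plus strand: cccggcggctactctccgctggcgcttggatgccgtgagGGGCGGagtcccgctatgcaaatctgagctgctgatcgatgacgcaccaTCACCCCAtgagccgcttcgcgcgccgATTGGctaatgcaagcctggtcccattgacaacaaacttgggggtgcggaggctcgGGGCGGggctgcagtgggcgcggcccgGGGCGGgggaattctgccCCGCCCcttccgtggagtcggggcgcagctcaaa
Insig1, chr5:28071162-28071411, plus strand: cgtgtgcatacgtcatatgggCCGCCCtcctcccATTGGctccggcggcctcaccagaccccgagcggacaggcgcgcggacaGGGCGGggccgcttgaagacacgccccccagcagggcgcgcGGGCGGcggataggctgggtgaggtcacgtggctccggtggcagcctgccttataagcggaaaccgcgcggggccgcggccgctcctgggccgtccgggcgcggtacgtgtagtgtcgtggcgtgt

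In the Srebf2 window TCACCCCA stood 162 to 155 bases before the start, an inverted CCAAT box 135 to 131 bases before it, and 4 GGGCGG boxes around them. The Insig1 window held an inverted CCAAT box 216 to 212 bases before the start and 3 GGGCGG boxes, and no TCACNCCA. The table held 12 windows for 7 of the 8 members. TCACNCCA was found in 1 of the 12, against 3.67% of all 32851 windows of that length, and the stricter TCACNCCAC, which contains it, in 0 of the 12, against 1.05%. CCAAT was found in 5 of the 12 (33.8% of all windows) and GGGCGG in 8 (32.7%). These are matches of letters, and binding was not measured.

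With FAC, 3 of the 8 genes rose: Insig1, Stard4 and Srebf2. The other 5, Srebf1, Scap, Insig2, Mbtps1 and Mbtps2, did not pass the test in either direction. Genes were called at an edgeR quasi-likelihood adjusted p (Benjamini-Hochberg over all 13378 genes) under 0.05. By that rule 3.27% of all tested genes were called, 2.18% as higher and 1.10% as lower. The median log2 change was 0.11 over the 8 members and -0.00 over all tested genes. The same 3 members were also those whose groups did not overlap in CPM, which held for 11.1% of all tested genes (6.17% with FAC higher and 4.89% with FAC lower). The total of 438 called genes moved with the libraries used (188, 209 and 247 without control 1, 2 and 3; 168 and 147 without FAC 2 and 3), whereas the members called were these 3 whichever of the 8 libraries was left out. In bulk RNA a change in the number of expressing cells and a change in RNA per cell cannot be told apart. The labels do not say whether the mice were cultured on separate days, so p-values measure the spread between these cultures.

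**Figure D1:**
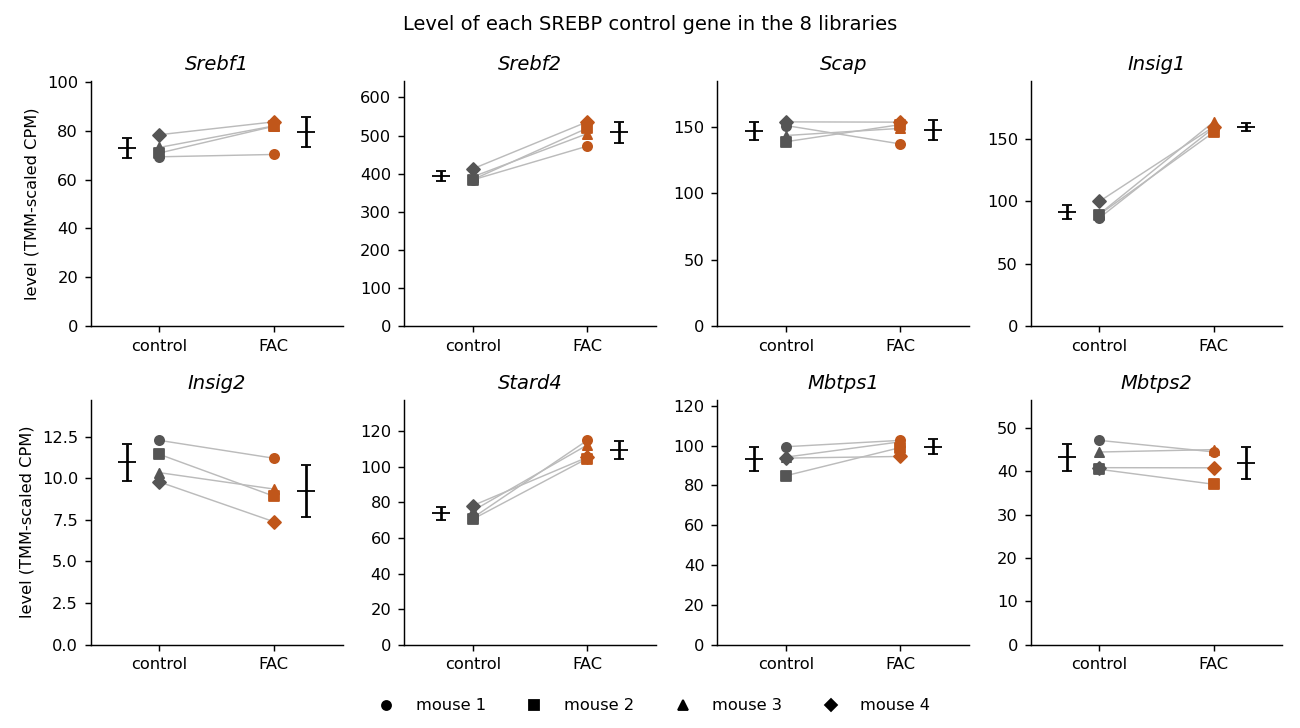
Level of each of the 8 genes in TMM-scaled CPM (y axes from 0, a scale of its own for each gene) in the control and FAC cultures. Symbols mark the mouse, grey lines join cultures of a mouse, and the black dash and bar beside each group give its mean and SD (n = 4). For Insig1, Stard4 and Srebf2 every FAC symbol lies above every control symbol. For the other 5 genes the groups overlap.

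Insig1 encodes the sterol-sensitive retention protein. Its level was 86.5, 89.2, 89.6 and 99.8 CPM in control cultures of mice 1 to 4 and 159, 155, 164 and 160 CPM in FAC cultures. The lowest FAC culture was thus well above the highest control, and the FAC cultures lay closer together than the controls. The mean rose from 91.3 ± 5.83 to 159 ± 3.38 CPM (SD, n = 4), a log2 change of 0.80 (SE 0.05) or 1.75-fold, with an edgeR adjusted p of 4.56e-07. Within mice 1 to 4 the log2 change was 0.88, 0.80, 0.87 and 0.68. By p-value, Insig1 ranked 4 among the 13378 tested genes.

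Stard4 encodes a soluble carrier that moves cholesterol between membranes, and its transcript is a known SREBP target. The control cultures of mice 1 to 4 held 71.3, 70.6, 75.3 and 78.2 CPM, and the FAC cultures 115, 105, 112 and 105 CPM. All 4 FAC cultures lay above all 4 controls. The mean rose from 73.9 ± 3.57 to 109 ± 5.07 CPM (SD, n = 4; log2 change 0.57, SE 0.05, 1.48-fold, edgeR adjusted p = 1.42e-05). The change was 0.69, 0.57, 0.58 and 0.43 in mice 1 to 4, so that mouse 4 had the smallest change for this gene, as it did for Insig1.

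Srebf2 encodes SREBP2, the family member that chiefly drives sterol synthesis and that is known to act on its own promoter, whose sequence is given above. Its level was 384, 384, 392 and 413 CPM in control cultures of mice 1 to 4 and 472, 519, 505 and 536 CPM in FAC cultures. The groups did not overlap, although the change was smaller than that of Insig1 or Stard4. The mean rose from 393 ± 13.5 to 508 ± 27.1 CPM (SD, n = 4; log2 change 0.37, SE 0.04, 1.29-fold, edgeR adjusted p = 2.58e-04). Within mice 1 to 4 the change was 0.30, 0.43, 0.37 and 0.38.

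Srebf1 encodes SREBP1, which chiefly drives fatty acid synthesis and is made from alternative first exons that gene-level counts cannot separate. It was at 69.3 to 78.4 CPM in controls and 70.3 to 83.7 CPM in FAC cultures. The groups overlapped through the FAC culture of mouse 1, at 70.3 CPM, while the other 3 FAC cultures lay above all controls. The log2 change was 0.12 (95% interval -0.02 to 0.27, edgeR adjusted p = 0.294) and was above 0 in 4 of 4 mice. A rise of the size seen for Srebf2 lies outside this interval. The gene Rai1 overlaps Srebf1 on the opposite strand in the GENCODE M21 annotation (log2 change 0.15, edgeR adjusted p = 0.213). The labels do not say whether the counting used strand, so reads of that pair may not be fully separated. The expected counts of Srebf1 were whole numbers in each library, as when no read is divided between genes. Those of Scap and Mbtps2 were not (3802.97 and 1190.13 in the control culture of mouse 1).

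Insig2 encodes the second INSIG protein, which also holds SCAP in the endoplasmic reticulum but whose transcript is not driven by SREBP in the way that of Insig1 is. It was the least abundant member, with 9.79 to 12.3 CPM in controls and 7.39 to 11.2 CPM with FAC. The FAC culture was the lower of the pair in 4 of 4 mice, yet the groups overlapped and the change did not pass the test (log2 change -0.25, 95% interval -0.55 to 0.05, edgeR adjusted p = 0.311). On the length-scaled TPM values the 2 groups were nearer, at 9.79 ± 2.46 and 9.60 ± 1.79 TPM, and the log2 change was -0.02 in limma on log2(TPM + 1) (adjusted p = 0.977). The 2 scales differ in the gene length that RSEM assigned in each library, described below, and in that only CPM uses TMM factors. With a length offset in edgeR, the log2 change of Insig2 was -0.06 (edgeR adjusted p = 0.912).

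Scap, which encodes the escort protein, was at 139 to 154 CPM in controls and 137 to 153 CPM with FAC. Its log2 change was 0.01 (95% interval -0.10 to 0.12, edgeR adjusted p = 0.930), with 2 of 4 mice higher. Mbtps1, which encodes the site-1 protease, was at 84.9 to 99.5 and 94.6 to 103 CPM. Its log2 change was 0.10 (95% interval -0.03 to 0.22, edgeR adjusted p = 0.325), with 4 of 4 mice higher. Mbtps2, which encodes the site-2 protease, was at 40.5 to 47.2 and 37.0 to 45.0 CPM. Its log2 change was -0.05 (95% interval -0.22 to 0.13, edgeR adjusted p = 0.781), with 1 of 4 mice higher. For the transport and cleavage machinery, changes beyond these values lie outside the 95% intervals, and a p that misses the threshold does not show that the levels were alike. Yy2 lies within Mbtps2 on the same strand in the annotation, and its log2 change was -0.00 (edgeR adjusted p = 0.998).

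**Figure D2:**
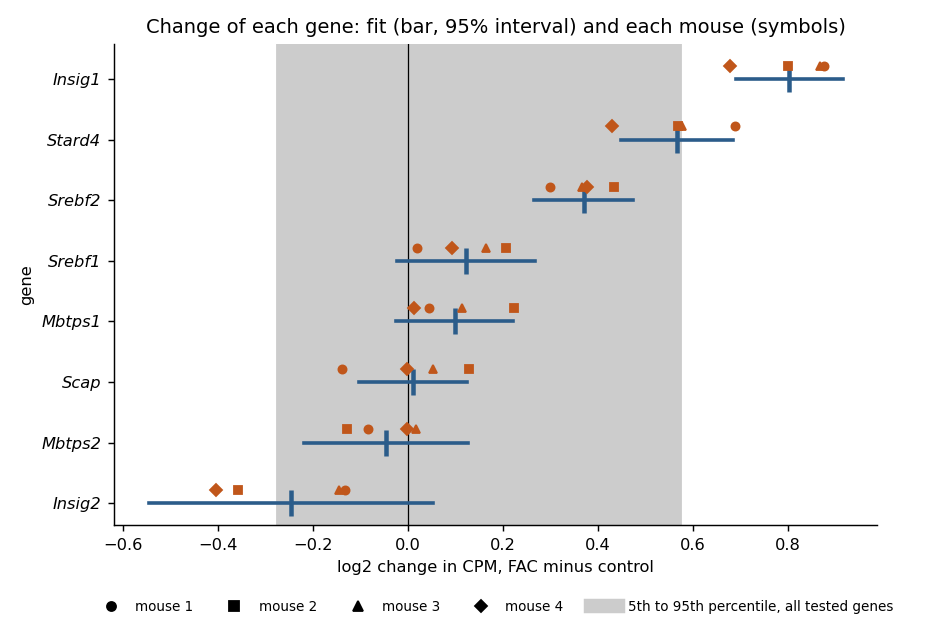
Log2 change in CPM, FAC minus control (x axis), for each gene (y axis). Blue ticks and bars give the edgeR estimate and its approximate 95% interval, orange symbols the difference within each mouse, and the grey band the 5th to 95th percentile over all tested genes (-0.28 to 0.57). Insig1, Stard4 and Srebf2 have intervals above 0 and all 4 mice to the right of 0, and Insig1 alone lies clear of the grey band.

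Length-scaled levels, which can be compared between genes, put Srebf2 first in both groups. In controls the means were 135 TPM for Srebf2, 71.0 for Scap, 53.3 for Insig1, 41.5 for Srebf1, 37.2 for Mbtps1, 29.6 for Stard4, 23.0 for Mbtps2 and 9.79 for Insig2. Neighbours in this order did not overlap between libraries, except Srebf1 with Mbtps1 and Stard4 with Mbtps2. With FAC the order was Srebf2 (179 TPM), Insig1 (95.9), Scap (74.3), Stard4 (49.8), Srebf1 (47.9), Mbtps1 (39.3), Mbtps2 (23.1) and Insig2 (9.60). Overlaps between neighbours there were Stard4 with Srebf1 and Srebf1 with Mbtps1.

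**Figure D3:**
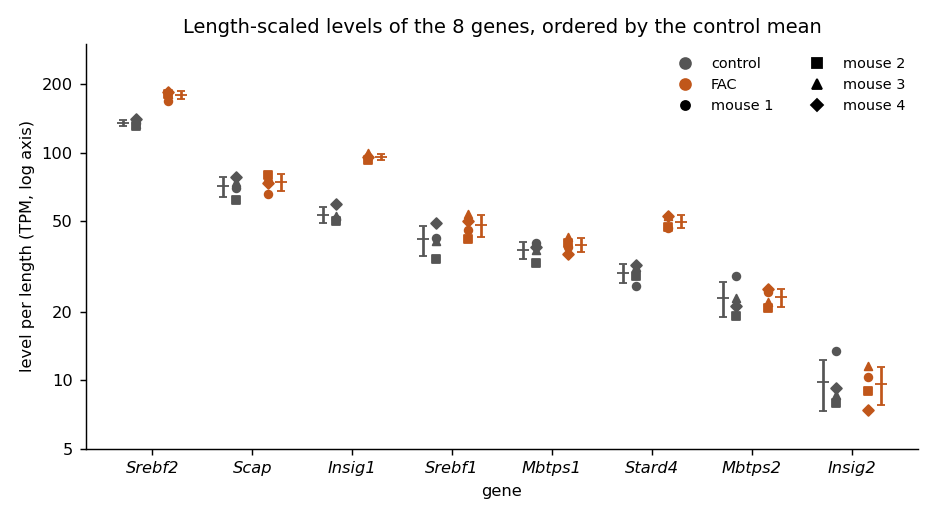
Level per length in TPM (log axis) of the 8 genes, ordered by the control mean, in control (grey) and FAC (orange) cultures. Symbols mark the mouse and dashes with bars give mean and SD (n = 4). Insig1 lies below Scap in every control and above it in every FAC culture.

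The balance between INSIG1 and its escort target SCAP at the RNA level is one such change in order. The ratio of Insig1 to Scap TPM was 0.727, 0.809, 0.708 and 0.764 in control cultures of mice 1 to 4 and 1.45, 1.17, 1.27 and 1.31 in FAC cultures. It was below 1 in every control and above 1 in every FAC culture. Between the INSIG genes, Insig1 made up 79.2, 86.3, 85.9 and 86.6% of their summed TPM in control cultures of mice 1 to 4 and 90.2, 91.2, 89.6 and 92.8% in FAC cultures. These groups did not overlap either. The ratio of Srebf2 to Srebf1 was 3.29 ± 0.407 in controls and 3.76 ± 0.398 with FAC (SD, n = 4), with overlapping groups, and that of Mbtps1 to Mbtps2 was 1.64 ± 0.181 and 1.72 ± 0.255, also overlapping. The ratios are descriptions with no test, and follow from the levels already given.

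RSEM's effective length, a mean over a gene's transcripts weighted by their abundance, gives an indirect view of the transcript mix that the gene-level files otherwise hide. The files list 2 transcripts for Insig1, 4 for Stard4, 7 for Srebf2, 8 for Mbtps2, 9 for Mbtps1, 10 for Scap, 12 for Srebf1 and 14 for Insig2. Insig1 and Srebf2 were nearly constant over the 8 libraries, at 2349 to 2404 and 3966 to 4103 bases. Insig2 varied the most, from 1159 to 1942 bases, and Srebf1 ran from 2165 to 2812 bases, the longest values of Srebf1 being those of both cultures of mouse 2. Stard4 had a mean of 3469 ± 234 bases in controls and 3128 ± 264 bases with FAC (SD, n = 4). Its groups overlapped, and the FAC culture had the shorter value in each of the 4 mice (3817 and 3471, 3327 and 3141, 3333 and 3072, 3401 and 2830 bases in the control and FAC cultures of mice 1 to 4). By exact permutation of the group labels (70 assignments, two-sided, not paired by mouse), 0 of the 8 genes differed between groups at an adjusted p under 0.05 and 0 at an unadjusted p under 0.05. The smallest p was 0.114, for Stard4 (adjusted p = 0.610), where the smallest p possible was 0.0286, so that no single gene could have passed the adjustment over 8 genes by itself.

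**Figure D4:**
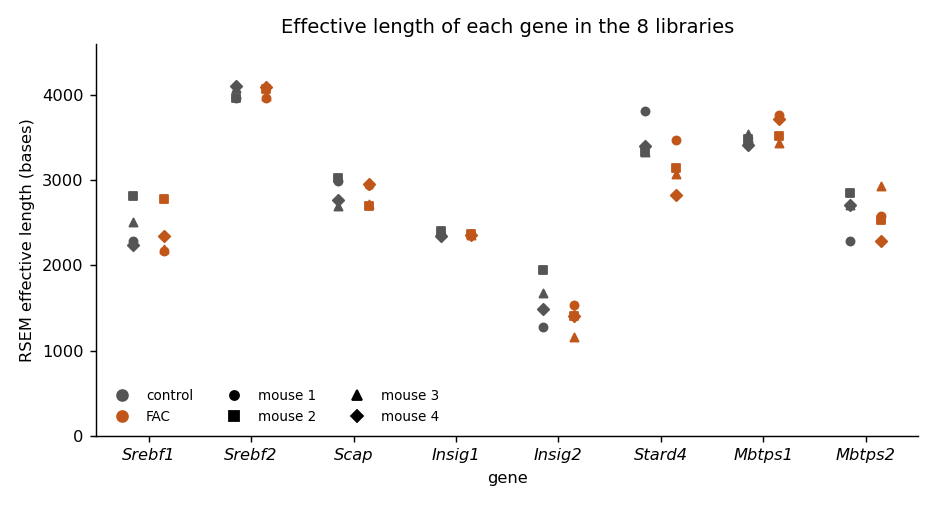
RSEM effective length in bases (y axis from 0) of each gene in control (grey) and FAC (orange) cultures, with symbols for the mouse. Values of Insig1 and Srebf2 lie together, whereas those of Insig2 spread from 1159 to 1942 bases with both groups mixed.

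The remaining genes of the pathway were read from the same fit by lists of their roles. Downstream, 19 of 21 sterol synthesis enzyme genes rose, 0 fell and 2 did not pass, where 2.18% of all tested genes were called as higher. Their median log2 change was 0.68 (range 0.07 to 0.94), against -0.00 over all tested genes, a pattern known from these data when the list was drawn up. Among those with the smallest adjusted p were Cyp51, the lanosterol demethylase gene (0.68), Msmo1, the methylsterol monooxygenase gene (0.94), and Hmgcs1, which encodes the synthase that opens the mevalonate pathway (0.94). Each was higher in 4 of 4 mice, with edgeR adjusted p of 3.97e-07, 3.97e-07 and 6.10e-07. Insig1 and Stard4, at 0.80 and 0.57, lay within the range of the enzymes that rose. Srebf2, at 0.37, was below the smallest change among those 19, 0.38 for Mvk (named after its value was seen). It was above the 2 that did not pass, Lbr and Ebp (0.09 and 0.07, likewise named afterwards).

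Of 14 tested genes of fatty acid enzymes and other known SREBP1 targets, 7 rose and 7 did not pass. Over all 13378 tested genes 2.18% were called as higher, and with the replicate block 544 genes were. The median log2 change of the 14 was 0.26. The changes ran from -0.12 to 2.30, the highest being the call of the desaturase gene Scd1, named after its value was seen. That gene, at 0.101 ± 0.0430 CPM in controls and 0.511 ± 0.196 CPM with FAC (SD, n = 4), passed the filter on low counts only through the FAC cultures, where it was high. The counts of genes that rose in this list include Scd1, though its call adds no support. With the replicate block 8 of the 14 rose, the added one being the desaturase gene Fads1, also named afterwards (log2 change 0.25, edgeR adjusted p = 0.0774, and 0.0234 with the replicate block). The 4 with the smallest adjusted p were Elovl6, a fatty acid elongase gene (0.56), Lpin1, a phosphatidate phosphatase gene (0.96), Fasn, the fatty acid synthase gene (0.27), and Acly, which encodes the citrate lyase that supplies acetyl-CoA (0.20). Their edgeR adjusted p were 8.46e-05, 0.00100, 0.00596 and 0.00780, and each was higher in 4 of 4 mice. In the same fit Srebf1 itself did not pass (log2 change 0.12).

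The lists of genes acting before or beside the factor are small, and their counts are to be read against the 3.27% called over all tested genes. Of all 13378 tested genes, 2463 had an unadjusted p under 0.05, and 919 were called with the replicate block. Counts by unadjusted p, and genes named here for the block, are to be read against those 2 numbers. Of 17 genes of INSIG degradation and SREBP turnover edgeR called 0 (3 had an unadjusted p under 0.05, and DESeq2 and limma-voom also called 0). The ubiquitin ligase subunit gene Fbxw7, which marks nuclear SREBP for degradation and is named after its value was seen, had a log2 change of -0.25 (edgeR adjusted p = 0.193, and 0.0109 with the replicate block). Of 16 genes of the escort from endoplasmic reticulum to Golgi edgeR called 0 (3 had an unadjusted p under 0.05, DESeq2 called 1 and limma-voom 0). The COPII GTPase gene Sar1b, likewise named afterwards, had -0.23 (edgeR adjusted p = 0.0615, and 0.0191 with the replicate block). Of 10 genes of SREBP transcription partners edgeR called 0 (2 had an unadjusted p under 0.05, and DESeq2 and limma-voom also called 0). The mediator subunit gene Med15, also named afterwards, had 0.15 (edgeR adjusted p = 0.162, and 0.0405 with the replicate block). Of 6 tested genes of other substrates of the site-1 and site-2 proteases, such as Atf6, edgeR called 0, also with the replicate block (1 had an unadjusted p under 0.05, and DESeq2 and limma-voom also called 0). The median log2 changes of these 4 lists were 0.00, -0.00, -0.03 and -0.01.

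Among 21 genes of intracellular sterol transport, 1 rose, where 2.18% of all tested genes were called as higher. This was Gramd1a, which encodes a carrier of cholesterol from plasma membrane to endoplasmic reticulum (189 ± 5.71 and 220 ± 18.7 CPM, SD, n = 4; log2 change 0.22, SE 0.05, edgeR adjusted p = 0.0425). It was higher in 3 of 4 mice and was called in 2 of 8 fits with 1 library fewer, with an edgeR adjusted p of 0.160 without FAC 3. Stard4 was the one sterol carrier among the members, and its change of 0.57 was above the highest change in that list, 0.22. Tmem97, named after its value was seen, was at 0.18 (edgeR adjusted p = 0.0540, and 0.0192 with the replicate block). The block called 2 of the 21 as higher, and 544 of all 13378 tested genes. The median log2 change of the list was 0.04.

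For each member that rose, the genes whose log2 CPM followed it most closely over the 8 libraries were sought among the 8532 genes whose mean log2 CPM reached 3. For Insig1 they were Pcyt2, of phosphatidylethanolamine synthesis (Pearson r = 0.990), and the mevalonate pathway genes Mvd (0.990) and Pmvk (0.989). For Stard4 they included Mvd (0.988) and Elovl6 (0.986). For Srebf2 they included Als2cl (0.985) and Tmem131l (0.981). The points share the 2 groups, so each r includes the shift between groups. With the mean of each group removed, r was 0.691, 0.561 and 0.371 for Pcyt2, Mvd and Pmvk with Insig1, 0.651 and 0.727 for Mvd and Elovl6 with Stard4, and 0.838 and 0.827 for Als2cl and Tmem131l with Srebf2. Insig1 and Stard4 had r = 0.989 over the 8 libraries and 0.696 with group means removed, and Insig1 and Srebf2 had 0.966 and 0.467. Srebf2 and Stard4 had 0.926 and -0.170, so this pair did not move together within the groups. For Srebf1 and Srebf2 the values were 0.779 and 0.947. Large values with group means removed were not particular to that pair. Srebf2 and Insig2 had -0.790 and -0.946, Srebf1 and Insig2 -0.927 and -0.888, and Srebf2 and Scap 0.319 and 0.827. These are descriptions over 8 libraries, with no test.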

How the data were processed

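Per the file headers, the authors deposited RSEM gene tables for 8 libraries, with expected counts (estimated reads per gene, not scaled between libraries), TPM values, effective lengths and FPKM values, the last not used. The authors also deposited a table of normalised signal for 13751 genes; the labels do not say how it was scaled. Tools and build named in the submitters' processing notes are STAR 2.7.6a, RSEM 1.3.1, DESeq2 1.26.0 and GRCm39. Per the labels' protocols, 250 ng of RNA entered a stranded mRNA kit, and they name no annotation release.

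Expected counts were rounded and tested with edgeR 4.0.16 (R 4.3.3): expression filter (minimum count 10, minimum total 15), TMM factors, quasi-likelihood test on the group alone, Benjamini-Hochberg over 13378 genes, which held 99.9% of counts. CPM values use TMM factors. The SE is the absolute log2 change over the square root of F, and 95% intervals use it with 6 degrees of freedom, so both are approximate. Reads carry no molecular identifiers, so counts are not independent molecules. Tests were checked on simulated data. A mouse number names cultures of the same animal, so it was also fitted as a block; deviations from group means correlated at 0.137, 0.0165, 0.0647 and 0.139 between the libraries of mice 1 to 4, and at up to 0.0331 between different mice.

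The members and lists were chosen with earlier results of these data known. Named were all members, up to 4 called genes per list with the smallest adjusted p, and the 3 genes most correlated with each called member; 3 genes that this rule selects are not reported here. Genes outside the rule are marked as named after their values were seen. Alternatives were DESeq2 1.42.0, limma 3.58.1 (voom, log2(TPM + 1), log2(TPM + 0.1), log2(signal + 1)), other size factors, no filter, a length offset, the block and leaving out libraries.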

Additional observations from a re-analysis of the deposited data

Results flagged for a closer look

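In 1 of the 16 groups of 4 values tested (8 genes in 2 groups, in CPM), a single culture stood apart by the gap test for an extreme value. It was Srebf1 in the FAC culture of mouse 1, at 70.3 CPM, whose nearest neighbour was at 81.9 CPM, a gap of 0.866 of the group's range. Chance flags about 1 in 20 groups. Without this culture the log2 change of Srebf1 was 0.18 with an edgeR adjusted p of 0.0654, against 0.12 and 0.294 with all libraries, and the gene was called in 0 of 21 alternatives.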

How the results depend on the processing

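Insig1, Stard4 and Srebf2 were called as higher in each of the 21 alternatives, at log2 changes of 0.78 to 0.85, 0.53 to 0.75 and 0.34 to 0.41, and the other 5 members in 0 of 21. The sign of the change differed from the reported one in 7 alternatives for Scap and in 3 for Mbtps2. With the replicate block the members called were the same 3 (edgeR adjusted p = 7.07e-08 for Insig1, 5.71e-06 for Stard4 and 1.27e-05 for Srebf2). The block changed no call of a member.

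The count over all genes moved more. It was 438 as reported, 919 with the replicate block, 736 without a filter, 744 with DESeq2, 187 with the length offset, 144 and 138 in limma on log2(TPM + 1) and log2(TPM + 0.1), and 156 in limma on the deposited signal. It ran from 147 to 549 with 1 library left out and was 194, 83, 87 and 515 without both libraries of mouse 1, 2, 3 and 4, a choice made after seeing the data. The share of calls that were higher was 66.4% as reported and 77.8% and 78.3% on the 2 TPM scales. The median log2 change over all tested genes was -0.001 as reported and 0.035 and 0.040 on those scales. The highest log2 changes of Insig1, Stard4 and Srebf2 given above, 0.85, 0.75 and 0.41, came from log2(TPM + 0.1). With the length offset in edgeR the changes of these genes were 0.81, 0.71 and 0.36, against 0.80, 0.57 and 0.37 as reported. The size of the Stard4 change thus depended on whether the length that RSEM assigned was used. The cause was not tested. The effective lengths gave 0 genes at an adjusted p under 0.05 with each library left out, but no single gene could have passed there, so this says nothing about stability. Of the members, Insig2 had the fewest counts, 189 to 421 a library.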
